A study of Drosophila melanogaster with 3 samples.

Results

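The genes described here are ush and the GATA factor genes pnr, srp, GATAe, GATAd and grn of Drosophila melanogaster, 6 of the 13945 protein-coding genes on the 6 chromosome arms. Binding at these genes was read from lists of peaks found by chromatin immunoprecipitation and sequencing (ChIP-seq) of CG17359, a zinc finger protein known by its gene number. The embryos were whole, 0 to 14 h old, and stably carried a transgene for CG17359 fused at its C terminus to green fluorescent protein (GFP), which was recovered with an antibody against GFP. All 3 biological replicates shared this genotype and stage, and they formed the only group. The labels do not give the promoter that drives the transgene, and whole embryos mix all cell types, so a peak cannot be placed in a tissue. Peak lists hold no expression values, so the stage could not be checked against marker genes. The members were chosen by gene name with these same lists in view. Every summit in a member gene or within 10 kb either side of it was then taken, and the counts are given as descriptions, without tests.

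GATA factors are zinc finger transcription factors that bind the DNA word GATA, and in the fly they direct the formation of blood, heart, gut, dorsal ectoderm and the notum. Pannier (pnr) acts in the dorsal ectoderm, the heart and the notum, Serpent (srp) in blood cells, the fat body and the endoderm, GATAe in the midgut, and Grain (grn) in the posterior spiracles, among other places. U-shaped (ush) is the fly member of the Friend of GATA family, a protein with many zinc fingers that binds GATA factors, Pannier and Serpent among them, and changes their activity at target genes. Embryos that lack ush fail to retract the germ band and keep a bent, U-like shape.

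The sites fell very unevenly. The authors' final list, thresholded by an irreproducible discovery rate (IDR) procedure and called the thresholded list here, held 30 of its 7287 summits at the 6 loci, and 22 of those 30 were at ush. The list made from all replicates together, called the pooled list, held 101 of its 30000 summits there, and 65 of those were at ush. Windows of srp, GATAe and pnr overlap, so summits shared between them were counted once in these totals. The thresholded summits are the strongest 7287 of the pooled list, and a rank below is a summit's place in the pooled list by the authors' signal value, with 1 the strongest. Where a summit is given 3 ranks, they are its ranks in the lists of replicates 1, 2 and 3, in that order.

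The sequences under the strongest summit of each locus, and under the strongest start-site summit of ush, are shown because the description turns on these sites. Each is 200 bases of the plus strand of Release 6 (dm6), from RefSeq, with the summit at base 101. Capitals mark matches to the words searched, which were GATA sites (AGATAA or AGATAG or TGATAA or TGATAG), the GAGA word GAGAG, the word CGATA, the DNA replication-related element TATCGATA, the Zelda word CAGGTA, the E-box CACGTG and the TATA word TATAAA, on either strand and with overlaps allowed (CGATA lies inside TATCGATA).
ush, intronic summit (chr2L:480996-481195): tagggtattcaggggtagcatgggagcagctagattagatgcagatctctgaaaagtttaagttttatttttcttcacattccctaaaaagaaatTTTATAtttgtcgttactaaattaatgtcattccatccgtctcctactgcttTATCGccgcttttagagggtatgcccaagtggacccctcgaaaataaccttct
ush, start site of RA and RC (chr2L:523651-523850): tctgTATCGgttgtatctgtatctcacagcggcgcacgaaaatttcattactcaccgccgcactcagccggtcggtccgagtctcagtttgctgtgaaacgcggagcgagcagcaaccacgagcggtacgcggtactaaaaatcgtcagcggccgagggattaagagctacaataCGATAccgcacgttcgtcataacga
srp and GATAe, shared intergenic summit (chr3R:16006036-16006235): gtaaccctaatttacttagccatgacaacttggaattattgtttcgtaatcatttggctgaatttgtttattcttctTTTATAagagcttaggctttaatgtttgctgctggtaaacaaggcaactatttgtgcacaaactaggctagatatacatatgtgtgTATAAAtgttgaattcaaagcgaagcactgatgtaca
pnr, strongest pooled summit (chr3R:16043145-16043344): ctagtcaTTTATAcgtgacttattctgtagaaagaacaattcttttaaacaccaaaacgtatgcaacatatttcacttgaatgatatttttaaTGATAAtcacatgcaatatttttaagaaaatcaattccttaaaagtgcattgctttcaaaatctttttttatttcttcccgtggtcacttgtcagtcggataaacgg
GATAd, intronic summit (chr2L:10335065-10335264): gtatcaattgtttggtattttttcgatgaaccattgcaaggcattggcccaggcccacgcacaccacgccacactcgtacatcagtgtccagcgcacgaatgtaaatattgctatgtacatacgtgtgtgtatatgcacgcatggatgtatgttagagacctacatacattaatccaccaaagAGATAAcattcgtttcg
grn, intronic summit (chr3R:8171596-8171795): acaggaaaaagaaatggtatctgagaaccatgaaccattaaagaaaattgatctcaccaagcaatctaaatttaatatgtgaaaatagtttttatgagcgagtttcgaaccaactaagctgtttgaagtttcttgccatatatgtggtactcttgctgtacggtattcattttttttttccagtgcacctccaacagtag
The ush intronic summit lay at the edge of a TATAAA match on the minus strand, and the ush start-site sequence, at 53.5% GC, was the richest in G and C of the 6. A GATA site occurred in the pnr sequence, 2 bp from the summit, and in the GATAd sequence, 83 bp from it, and in none of the other 4. The grn sequence held none of the words. The shared summit is called intergenic because it lay between srp and GATAe, although it was inside the annotated lncRNA:CR42839.

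**Figure D1:**
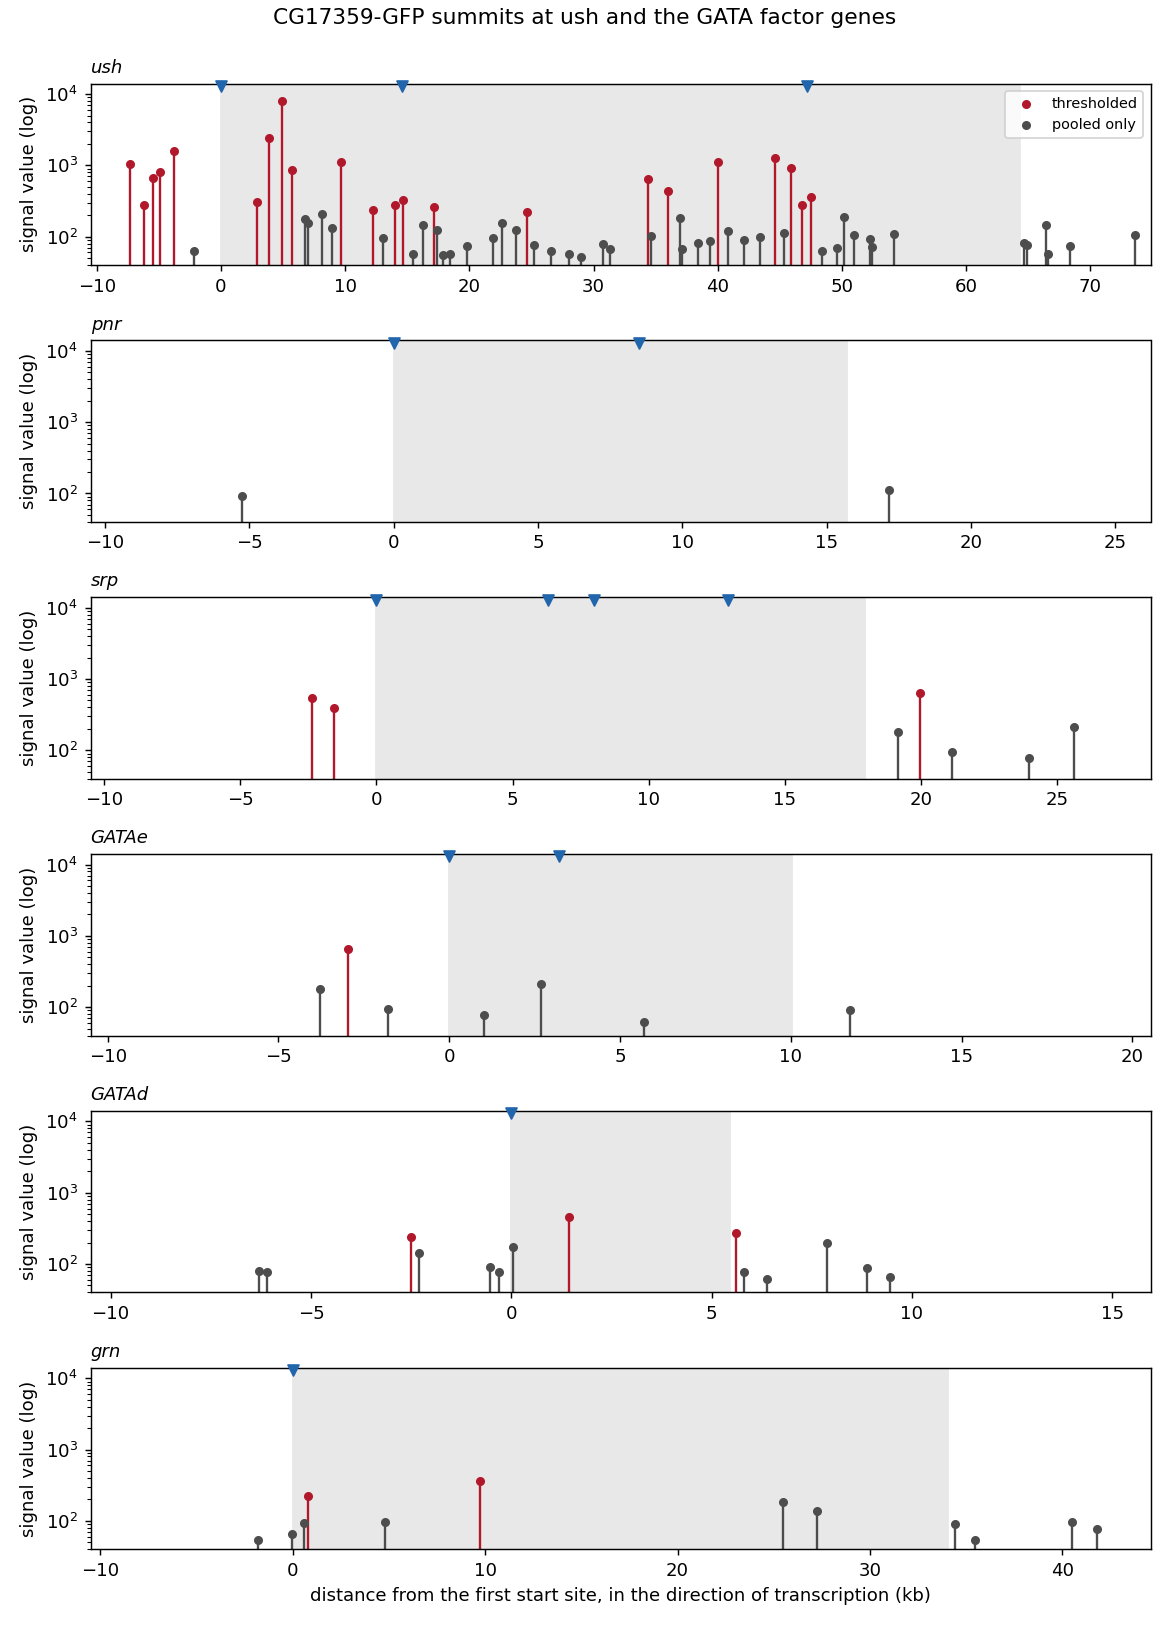
Summits at each locus, with the distance from the first start site in the direction of transcription (kb) on the horizontal axis and the authors' signal value in the pooled list on a log axis. Red lines are thresholded summits, grey lines are summits of the pooled list only, grey shading is the gene and blue triangles are start-site groups. ush holds 22 red lines and pnr none.

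The ush gene (FBgn0003963, 2L, 476220 to 540560, plus strand, 64341 bp) was among the most densely occupied genes of the genome. Its window of 84.3 kb held 22 thresholded summits. Among the strongest 7287 peaks of each replicate, replicates 1, 2 and 3 placed 19, 22 and 22 summits there, 21.0 ± 1.73 (SD, n = 3). Only kirre, a gene of a muscle fusion receptor whose window spans 414 kb, had more thresholded summits, with 39. Kirre was named after its value was seen. The median over all protein-coding genes was 1. Among the 224 genes with a window between 0.8 and 1.25 times that of ush, the median was 4 thresholded summits and no gene had more than ush. In the whole pooled list ush had 65 summits, against a median of 17 in windows of that size.

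As a density, ush had 2.61 thresholded summits per 10 kb, above 97.4% of protein-coding genes. The replicates gave 2.25, 2.61 and 2.61 per 10 kb, a mean of 2.49 ± 0.21 (SD, n = 3). The median density of all protein-coding genes was 0.48 per 10 kb. A higher density was found in 363 genes, all with shorter windows, the longest of 54.7 kb. Of these, CG4297, MED15 and cbt are neighbours whose windows overlap that of ush and share its summits.

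**Figure D2:**
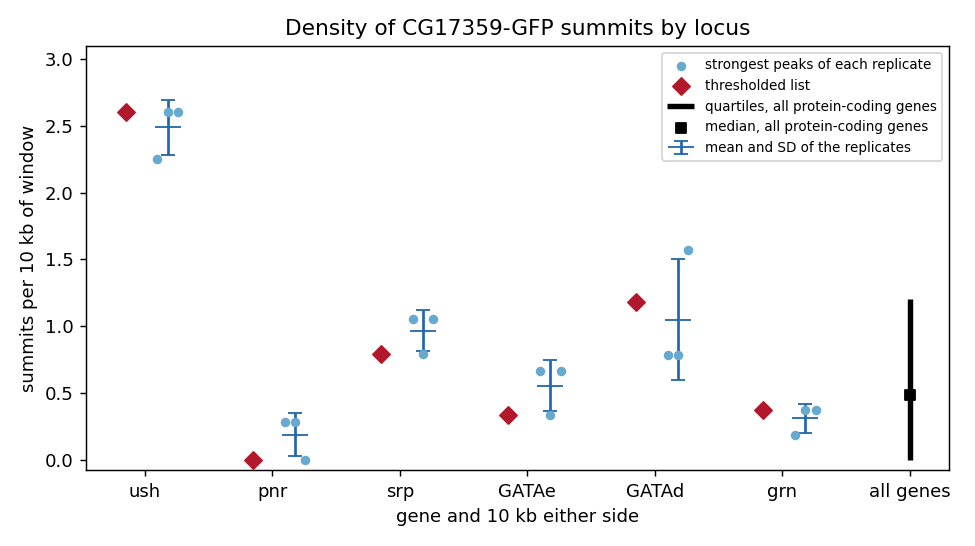
Thresholded summits per 10 kb of window (red diamonds) for each locus, with the strongest peaks of each replicate (light blue points) and their mean and SD (dark blue). The black bar at the right is the range from the lower to the upper quartile of all protein-coding genes, 0 to 1.20 per 10 kb, with the median as a square, and ush at 2.61 lies above it.

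The ush sites were also strong. Of the 1000 strongest summits of the pooled list, 7 lay in the ush window, and no other protein-coding gene had as many in its own. The other 5 members had none, as did 75.9% of all protein-coding genes. The median rank of the 22 ush summits was 1810, against 3718.5 for the 8 thresholded summits at the other members and 3644 over the whole thresholded list.

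The strongest of them was the fourth strongest peak of the genome. Its summit (2L, 481096) lay 4876 bp downstream of the first start site, in intron 1 of the ush transcripts RD and RE, and had a signal value of 7966. It ranked 3, 6 and 3 in replicates 1, 2 and 3. The next, at 480084, had a signal value of 2403 and ranked 146, 193 and 139. The signal value of the strongest was 3.32 times as high. Both lay upstream of cbt, the gene of the transcription factor Cabut, which is nested within ush (476446 to 479688) and transcribed from the minus strand. The summit at 480084 was 396 bp from the cbt start site and the strongest 1408 bp from it. From position alone, a site of cbt and a site of ush cannot be told apart here.

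The remaining strong sites lay in the body of the gene and in its upstream flank. In the flank, the summit at 472466 (signal value 1590) ranked 451, 283 and 416 in replicates 1, 2 and 3 and lay 266 bp upstream of the first start site of CG4297. The summit at 471319 (798) lay within CG4297, 236 bp downstream of an alternative start site of that gene, and 468900 (1032), 470751 (675) and 470038 (282) lay further into that gene. In the ush introns, 520864 (1254) ranked 465, 620 and 823, 516217 (1105) ranked 880, 706 and 742, and 485876 (1102) ranked 887, 725 and 737. The summits at 522136 (916) and 481951 (866) followed. All of the summits in this paragraph were among the 7287 strongest peaks of every replicate.

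The other 7 thresholded summits of ush, start sites aside, had signal values from 221 to 640. The strongest of them, at 510618, ranked 1938, 2072 and 1847 in replicates 1, 2 and 3, and the next, at 512226 (442), ranked 3955, 3058 and 3174. The summit at 479147 (309), the only one between the ends of cbt, ranked 3538, 5417 and 5855. The remaining 4, at 490222 (275), 493409 (264), 488429 (234) and 500847 (221), each had at least 1 replicate below rank 7287.

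The annotation gives ush 3 start-site groups, formed from starts at most 500 bp apart. The first, at 476220, serves the transcripts RD and RE. The second, 14.6 kb downstream at 490835, serves RB and is also the start of lncRNA:CR46258. The third, 47.2 kb downstream at 523466 to 523736, serves RA and RC. The first start site was the empty one. Its nearest thresholded summit was 2927 bp away, and even in the pooled list the nearest was 2204 bp away, at rank 25131. The second had a summit 20 bp downstream (490855, signal value 324), which ranked 3293, 3538 and 8237 in replicates 1, 2 and 3 and so fell outside the strongest 7287 of replicate 3. The third had a summit 15 bp downstream of its nearer start (523751, 355), which ranked 4360, 3422 and 3497, and a further one 455 bp upstream (523011, 279), which ranked 11243, 4177 and 5274. Neither occupied start site reached the signal values of the intronic summits at 485876, 516217 and 520864. Requiring a match among the strongest peaks of both other replicates, without replicate 1 or without replicate 2, left 1 start-site group, the third, while without replicate 3 there were 2.

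Site density along ush changed from one start site to the next. The 10 kb upstream held 5 thresholded summits. From the first to the second start site, over 14.6 kb, there were 7, or 4.79 per 10 kb. From the second to the third, over 32.6 kb, there were 9, or 2.76 per 10 kb. From the third start site to the end of the gene, over 17.1 kb, there was 1, at the start site itself, or 0.58 per 10 kb. The 10 kb downstream held none. There the strongest pooled summit (542609, signal value 144) lay 29 bp upstream of lwr, which encodes a SUMO-conjugating enzyme. The whole pooled list, which includes the thresholded summits, was ordered otherwise. It reached its highest density between the second and the third start sites, with 33 summits or 10.1 per 10 kb, and had 6 in each flank. Within that middle stretch, no thresholded summit lay between 500847 and 510618, a gap of 9771 bp and the widest in the window. The median gap between neighbouring thresholded summits was 1272 bp and the smallest was 568 bp.

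**Figure D3:**
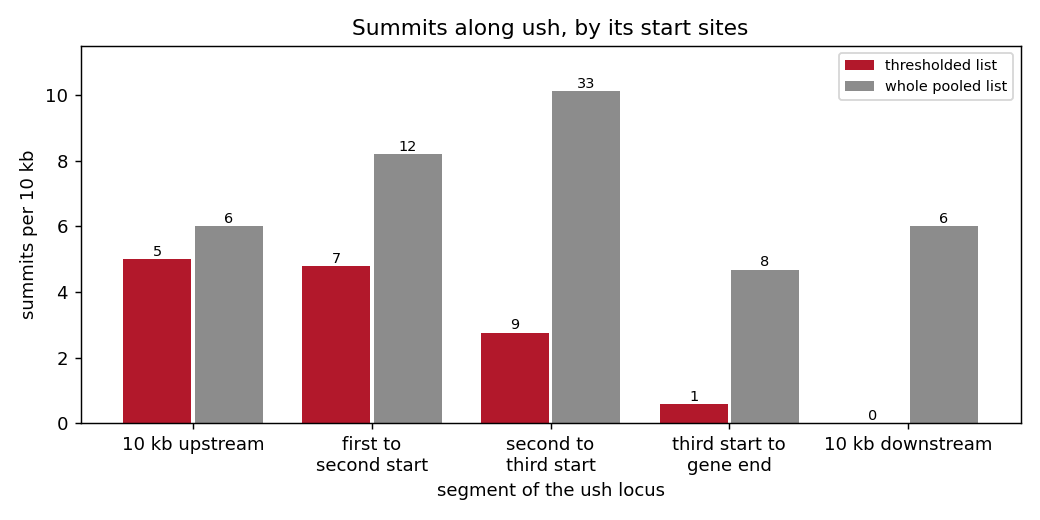
Summits per 10 kb in 5 segments of the ush locus, in the thresholded list (red) and the whole pooled list (grey), with the number of summits above each bar. Thresholded summits run from 5 per 10 kb upstream to 0 downstream, while the pooled density is highest, at 10.1, between the second and the third start sites.

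Intronic summits of ush fell into clusters. A cluster was taken as 3 or more intronic pooled summits, each at most 1 kb from the next. By this rule ush held 8 clusters and the other members none. The ush introns held 50 pooled summits, against 6 in grn, 3 in GATAe, 1 in GATAd and 0 in srp and in pnr. Most other members thus had too few intronic summits for several clusters. Clusters were not counted over all genes, so the number has no background. The cluster with the strongest summit spanned 481096 to 483208 and held 4 pooled summits, 2 of them thresholded. The one just before the third start site, from 520864 to 523011, held 4, of which 3 were thresholded. Another, from 514650 to 517058, held 4 with 1 thresholded, the summit of signal value 1105. The largest by number, from 491660 to 494685 just downstream of the second start site, held 6 pooled summits and only 1 thresholded, at 264. After the third start site, the cluster from 525820 to 527193 held 3 summits and no thresholded one, the strongest at rank 8109. Clusters depend on the gap allowed, with 4 at 2 kb and 1 at 500 bp.

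Of the 22 thresholded summits of the ush window, 14 lay in introns of ush, 3 in exons and 5 in the upstream flank. None of the exonic ones was in coding sequence. Within 500 bp of a start site of another gene lay 4 of the 22, belonging to CG4297, cbt and lncRNA:CR46258, and 18 remain without them. Within the gene body alone there were 17.

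The 3 GATA factor genes srp, GATAe and pnr lie side by side on 3R, all on the plus strand, from 15986152 to 16041796. This stretch of 55.6 kb held 1 thresholded summit and 7 pooled ones. With 10 kb either side it held 3 thresholded summits, 0.40 per 10 kb, and the replicates placed 5, 4 and 4 of their strongest peaks there. The stretch with its flanks, 75.6 kb long, is close in length to the ush window, which held 22.

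The srp gene (FBgn0003507, 3R, 15986152 to 16004085, 17934 bp) had no summit of any strength inside it. Its window held 3 thresholded summits, and replicates 1, 2 and 3 placed 4, 3 and 4 there, 3.67 ± 0.58 (SD, n = 3). Its density of 0.79 per 10 kb was above that of 57.2% of protein-coding genes. Of the 1165 genes with a window of similar length, 380 had more than 3, and the median was 2. A pair lay upstream of its first start site, between the 3′ end of the neighbouring gene Hel89B and srp. The nearer, 1574 bp upstream (15984578, signal value 396), ranked 4304, 4359 and 3278 in replicates 1, 2 and 3. The farther, 2384 bp upstream (15983768, 537), ranked 2715, 2125 and 2569. The gene has 4 start-site groups over 12.9 kb, serving RD, RE and RG at the first, RF at the second, RA and RB at the third and RH at the fourth. None had a summit within 500 bp in either list.

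The only thresholded summit of the stretch lay between srp and GATAe. It had a signal value of 647 at 16006136, 2969 bp upstream of GATAe and inside the annotated lncRNA:CR42839, whose start site was 1937 bp away. It ranked 1464, 1505 and 2817 in replicates 1, 2 and 3, the strongest of the 8 thresholded sites outside ush. Weaker pooled summits lay on both sides of it, at 16005311 (179) and 16007298 (94.3), and neither was found in replicate 1 within 200 bp.

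GATAe (FBgn0038391, 3R, 16009105 to 16019133, 10029 bp) had no thresholded summit inside it. Its window density of 0.33 per 10 kb rested on the site inside lncRNA:CR42839 that it shares with srp. Of the 3011 genes with a window of similar length, 1737 had more than 1 thresholded summit, and the median was 2. The replicates placed 2, 1 and 2 summits in the window, 1.67 ± 0.58 (SD, n = 3). Its second start site, 3.2 kb downstream of the first and the start of the transcript RA, had a pooled summit 490 bp upstream, in intron 1 of RB and RC (16011784, signal value 210). At rank 7313 this summit fell just short of the thresholded list. It ranked 6467, 9730 and 8455 in replicates 1, 2 and 3, so it was among the strongest 7287 of replicate 1 alone. The first start site had no summit within 500 bp in either list.

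The pnr gene (FBgn0003117, 3R, 16026079 to 16041796, 15718 bp) was the emptiest of the 6. Its window held no thresholded summit, which was also so for 29.7% of protein-coding genes. Of the 1381 genes with a window of similar length (0.8 to 1.25 times), 1124 had at least 1, and their median was 2. The pooled list had 2, both outside the gene. One lay 5254 bp upstream (16020825, signal value 90.8) and was matched in replicates 2 and 3 at ranks 21661 and 15445. The other lay beyond the end of pnr, 253 bp upstream of Jhbp4 (16043245, 112), and ranked 13396, 21819 and 14027. Its start-site groups, for RB and RD at the first and RA and RC 8.5 kb downstream, were 5254 and 8659 bp from the nearest pooled summit. Among the strongest peaks of single replicates, replicate 1 had a summit at 16042357 (rank 6307) and replicate 2 one at 16049570 (rank 4204). Both lay beyond the end of pnr, and that of replicate 2 lay between the divergent genes IKKbeta and CG5013. Neither lay within 200 bp of a pooled summit, and replicate 3 had none.

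GATAd (FBgn0032223, 2L, 10333734 to 10339185, 5452 bp) lies among closely packed genes, and most of the sites in its window were at the start sites of those neighbours. It had 3 thresholded summits, 1.18 per 10 kb, with 2, 2 and 4 in replicates 1, 2 and 3, 2.67 ± 1.15 (SD, n = 3). Of the 12148 genes with a window of similar length, 1874 had more than 3, and the median was 1. The strongest lay inside GATAd, in intron 1 of all its transcripts (10335165, signal value 455), and ranked 2851, 3646 and 2707. The summit at 10339338 (269) lay 119 bp upstream of SamDC, which encodes S-adenosylmethionine decarboxylase, and ranked 9931, 4291 and 4569. The summit at 10331233 (238) lay between the divergent genes Schip1 and Cox10, 117 and 238 bp upstream of them, and ranked 8492, 9310 and 6236. At its own start-site group GATAd had no thresholded summit and 2 pooled ones. The stronger lay 35 bp from the start (10333769, 176), at ranks 10292, 12494 and 12336, and the weaker 305 bp upstream (10333429, 77.3), matched in replicate 1 alone at rank 17939. The window held 14 pooled summits, and 8 of them were within 500 bp of a start site of another gene.

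The grn gene (FBgn0001138, 3R, 8147368 to 8181444, minus strand, 34077 bp) had both of its thresholded summits in introns. The replicates placed 1, 2 and 2 summits in the window, 1.67 ± 0.58 (SD, n = 3), and its density was 0.37 per 10 kb. Of the 535 genes with a window of similar length, 290 had more than 2 thresholded summits, and the median was 3. The stronger (8171696, signal value 368) lay in intron 2, 9748 bp downstream of the only start site, and ranked 4250, 3245 and 4656. The weaker (8180652, 222) lay in intron 1, 792 bp downstream of the start site, and ranked 8303, 10945 and 5640. At the start site itself there was only a pooled summit 35 bp upstream, at rank 24104 and a signal value of 65.0. Further into the gene, the intronic pooled summits at 8155976 (184) and 8154200 (136) were matched in all 3 replicates. The 3′ flank holds a group of tRNA genes. A pooled summit lay 48 bp upstream of tRNA:Asn-GTT-1-10 (76.6). Another lay 106 bp downstream of the start of tRNA:Arg-ACG-1-10 (95.9), past its end and upstream of the next gene, tRNA:Arg-ACG-1-9.

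The members were also counted against all genes, with the rule having used the same lists. A thresholded summit lay in the window of 5 of 6 members, against 70.3% of protein-coding genes. One lay in the gene body of 3 of 6 (ush, GATAd and grn), against 15.9%, where gene bodies were not matched for length. Of 13 start-site groups of the members, 2 (15.4%) had a thresholded summit within 500 bp, both at ush, against 21.3% of the start-site groups of all protein-coding genes. With the pooled list the count was 5 of 13 (38.5%), against 46.0%. By gene, 1 of 6 members had an occupied start site, against 23.9%.

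Replicate support was counted in the same way. Of the 30 thresholded summits at the 6 loci, 21 (70.0%) had a summit within 200 bp among the strongest 7287 peaks of all 3 replicates, against 70.8% of all thresholded summits. At ush it was 16 of 22, at srp 3 of 3, and at GATAd and grn 1 of 3 and 1 of 2. All 30 were matched somewhere in the whole list of every replicate, as were 97.0% of all 7287 thresholded summits. Since the replicate lists went into the thresholded one, part of this agreement is built in. All replicates were called against the same control, and its part in the matches was not tested. Of all 101 pooled summits at the loci, 54 were matched in all 3 whole lists, 28 in a pair and 18 in 1. The last, upstream of grn, was matched in none. No such shares are given for the whole pooled list, so these counts have no background.

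**Figure D4:**
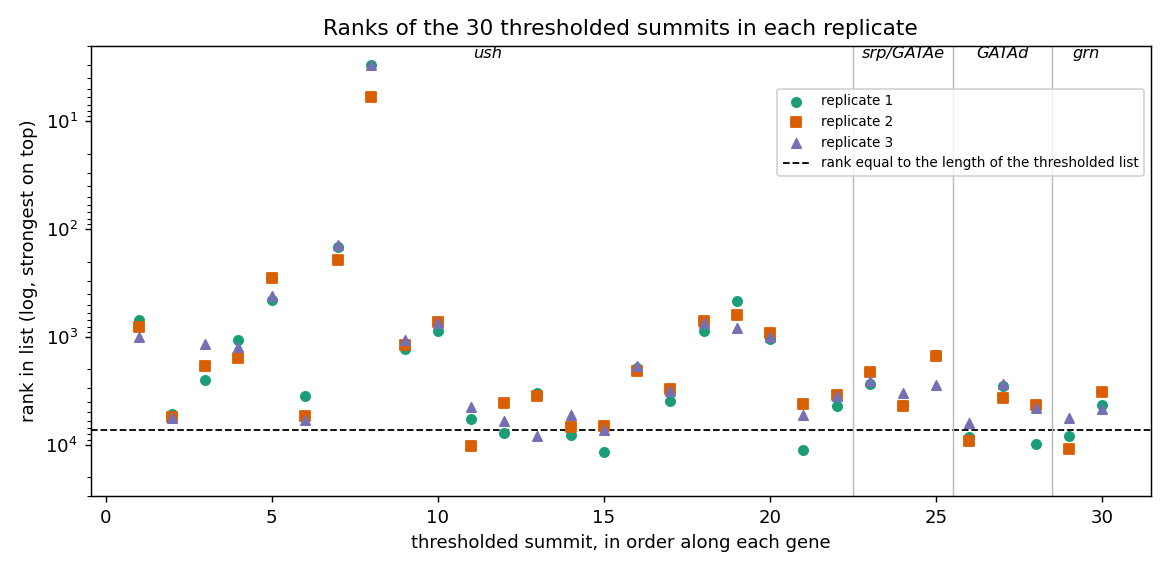
Rank of each of the 30 thresholded summits in the lists of replicates 1, 2 and 3 on a log axis with the strongest at the top, in order along each gene. The dashed line is rank 7287. Points of the strong ush sites lie close together, and 9 summits have a replicate below the line.

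The threshold passed between sites of nearly equal strength. Just inside it were the ush summits at 488429 (rank 6549, signal value 234) and 500847 (6942, 221) and the grn summit at 8180652 (6921, 222). Just outside were the ush summit at 484386 (7310, 210), the GATAe summit at 16011784 (7313, 210) and the GATAd window's summit at 10341606 (7865, 196), 10 bp upstream of CG31715.

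The words marked in the sequences above were counted at all sites. Within 50 bp of the summit a GATA site occurred at 6 of the 30 summits (20%), against 22.6% of all 7287. Of these, 5 were at ush (471319, 493409, 510618, 520864 and 522136) and 1 upstream of srp (15984578). GAGAG occurred at 4 of 30 (13.3%), all at ush, against 9.33%. TATAAA occurred at 6 of 30 (20%), against 23.3%, and the Zelda word CAGGTA at 1, the ush summit at 516217, against 1.88%. The word CGATA, the DNA replication-related element and the E-box occurred at none, against 12.7%, 1.03% and 0.631%. Within 100 bp, a GATA site was found at 13 of 30 (43.3%), against 38.7%, and CGATA at 6 of 30 (20%), against 25.4%. In that wider window GAGAG was at 6 of 30 (20%), against 21.3%, and TATAAA at 7 of 30 (23.3%), against 37.2%. CAGGTA and the E-box were at 1 of 30 each (3.33%), against 3.94% and 1.92%. The DNA replication-related element was at 0, against 2.66%. GC content in 201 bases around the summit averaged 37.0% over the 30 sites and 35.3% over all 7287. At ush it ranged from 23.4% to 55.2%, the highest at the summit inside cbt.

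The genes most like each member were taken over 4 standardised measures, namely window length, site density, share of start-site groups occupied and rank of the strongest site. For ush these were px, at a distance of 1.51 standard deviations, with 15 thresholded summits in 87.8 kb and its strongest at rank 6, and tara, at 1.74, with 16 in 54.7 kb and its strongest at rank 13. The other members had far closer matches, at distances of 0.145 or less. They were CG14073 and sens-2 for srp, SCAR and Zip99C for GATAd, CG13288 and CG8180 for GATAe, spdi and CG32547 for grn, and CG32447 and CG32532 for pnr. Since pnr had no thresholded summit, it tied on density, occupied share and rank with every gene that had none. Its distances, 0.003 and 0.008, therefore came from window length alone.

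Other genes of the pathways in which GATA factors and ush act were grouped in 7 lists of 95 different genes, and 25 had an occupied start site (a thresholded summit at most 500 bp away), against 23.9% of all protein-coding genes. Blood cell and fat body genes had 1 of 17, Fer1HCH (signal value 899), which encodes a ferritin subunit, and a median density of 0.44 per 10 kb, against the median of 0.48 of all genes. Heart and dorsal mesoderm genes had 3 of 17, the T-box gene org-1 (1928), the homeobox gene tin (1299) and Mef2 (231), and a median density of 0.91. Amnioserosa and dorsal ectoderm genes had 6 of 16, with Egfr, the epidermal growth factor receptor (1526), the helix-loop-helix gene net (419), the phosphatase gene puc (393) and the BMP antagonist gene sog (310) the strongest, and a median density of 0.83. Endoderm and gut genes had 5 of 11, with the zinc finger gene bowl (1259), the forkhead gene fkh (960), the innexin gene Inx7 (710) and the ETS gene pnt (342) the strongest, and a median density of 0.69.

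Proneural and notum genes had 3 of 14, the helix-loop-helix genes emc (511) and hry (242) and the LIM-only gene Bx (219), with a median density of 0.30. Genes of the spiracles and of other grn contexts had 2 of 11, the cadherin gene shg (351) and the epithelial polarity gene crb (346), with a median density of 0.49. Cofactor and corepressor genes, which include parts of the nucleosome remodelling complex that Ush is known to bind, had 6 of 14, with the chromatin remodeller gene brm (2411), the corepressor gene gro (1900), MBD-like (310) and simj (289) the strongest, and a median density of 0.95. These lists are short and their counts carry no test.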

How the data were processed

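Peak lists of 3 replicate immunoprecipitations of CG17359-GFP from 0 to 14 h embryos were used. According to text files in the deposit, replicate and pooled peaks were called on dm6 against 1 shared control, and the thresholded list was derived from these 4 lists. Not given in the sources used here are the aligner, the caller, the threshold of the IDR step and what the control contained. Per the deposited lists, all but the thresholded list stop at 30000 peaks. Signal values are the authors', as deposited, and served for ranks and descriptions inside 1 list. The authors' -log10 q values were left unused. All 7287 thresholded peaks were the strongest pooled peaks. The lists hold no read counts, so sequencing depth is unknown and no counting error can be given for a signal value.

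A summit was column 2 plus column 10 of a peak, written 1-based. Gene models were Ensembl release 115 (BDGP6, the same assembly as dm6), with transposable elements left out, and bases came from RefSeq's Release 6. Windows reached 10 kb beyond the gene, start sites at most 500 bp apart formed a group, a group was occupied by a summit within 500 bp, and replicate summits were matched within 200 bp, so 1 replicate summit can match neighbouring pooled summits. Errors are SDs over the 7287 strongest peaks of each replicate. Among these, no peak had the same bounds and signal value in another replicate. The members and lists were chosen with earlier results of these data known, so no test was run. Other named genes were those with a start site within 500 bp of a thresholded summit at a locus, up to 4 per pathway list by signal value, and the 2 nearest genes to each member by Euclidean distance. Genes named for weaker summits or as neighbours were added after their values were seen. Counting code was checked on made-up summits, with Python 3.11.15 and matplotlib 3.10.9. Alternatives were other flanks, promoter windows, match rules, cluster gaps and sequence windows, the stronger part of the list and each replicate left out.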

Additional observations from a re-analysis of the deposited data

How the results depend on the processing

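Of 59 alternative values, 36 stayed within 1.5 times the value reported, or within 1 SD of the replicates for a density. The other 23 moved further. Counts and densities have no sign, so none of them could reverse. The stronger part of the thresholded list, its first 3643 peaks, held 17 summits at the 6 loci and gave ush 1.54 per 10 kb, and flanks of 20 kb gave ush 2.11 per 10 kb. A shorter list can only lower a count, while a longer window can lower or raise a density. Start-site groups with a summit numbered 5 in the whole pooled list and 1 to 2 with a replicate left out. Intronic clusters numbered 4 at 2 kb and 1 at 500 bp, and GATA sites within 100 bp numbered 13. In gene bodies alone, srp and GATAe had 0 per 10 kb (0.79 and 0.33 with flanks), GATAd 1.83 (1.18) and grn 0.59 (0.37). Flanks of 5 kb gave GATAd 1.94 and srp 1.07. At pnr, with 0 per 10 kb as reported, flanks of 20 kb gave 0.18 and the mean of the replicates was 0.19. In the stronger part of the list, grn had 0 and GATAd 0.39. No paired analysis was possible because there was 1 group. The capped lists and the unknown depth mean that an empty window shows only that no peak reached the lists.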
